A study of Homo sapiens with 18 samples.

Results

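Transcription in MDA-MB-231 cells made to express a membrane-anchored AKT1 was compared with that of the parental cells, using 6 of the 18 RNA-seq libraries of the series. MDA-MB-231 is an established triple negative breast cancer line. The 3 libraries of the MB231-myrAKT line came from untreated cells infected with a retrovirus made from pBABEpuro-myrFLAG-AKT, which carries AKT1 with a myristoylation signal and a FLAG tag. The 3 MB231-WT libraries (WT) came from untreated, unmodified parental cells, and all 6 cultures were grown in the same medium with serum. The members were all genes that reached 1 CPM, a count scaled to the reads counted in the library, in 3 or more of the 18 libraries. These were 15587 of the 57448 genes in the table. The 6 untreated libraries of the GPS2 knockout pools KO1 and KO2, whose cells had received Cas9 and sgRNAs by lentivirus, were used for a second comparison set beside the first, and all 18 libraries entered the gene filter and the scaling of printed CPM.

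AKT kinases relay growth factor signals. PI3K makes a lipid in the plasma membrane to which AKT binds through its pleckstrin homology domain, and AKT is then phosphorylated there and acts on targets such as FoxO transcription factors, TSC2 and GSK3. A myristoyl group anchors AKT to the membrane without that lipid, so the kinase is active without a growth factor. The PI3K pathway is frequently active in breast cancer.

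The comparison asks what differs in the transcriptome of a line with constitutively active AKT1. WT libraries held between 33725461 and 37128614 counted reads and MB231-myrAKT libraries between 30287210 and 37046141, and 3 counts in a library correspond to between 0.0775 and 0.0959 CPM. Of 12 markers of triple negative lines, 12 were tested, with VIM at 1362 ± 46.5 CPM in WT and 1749 ± 70.7 in MB231-myrAKT (mean ± SD, n = 3 in each group, as for all means below). At the threshold for a call given below, 4 of the 12 were higher and 5 lower, with a median log2 fold change of -0.06. Only 1 of 7 leukocyte markers reached the filter and was tested. This marker was between 1.14 and 2.11 CPM in WT and between 0.481 and 0.895 CPM in MB231-myrAKT. The parental cells carried no empty retrovirus, so the infection, any selection and the later growth of the line cannot be told apart from the effect of AKT1. The sources used here do not say whether the line was cloned or whether replicates were separate cultures, so the p-values measure the spread between these libraries, which may be technical.

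AKT1 (ENSG00000142208, minus strand, chr14:104769349-104795751 in hg38) was measured at 135, 133 and 135 CPM in the WT libraries and at 242, 231 and 217 CPM in the MB231-myrAKT libraries. The groups did not overlap, which held for 9480 of the 15587 genes tested. The log2 fold change was 0.77 ± 0.0443 (standard error) with an adjusted p of 4.3e-09 in edgeR's quasi-likelihood test. An exact permutation test of the 3 against 3 values gave a two-sided p of 0.1, the smallest that this design allows. The counts do not separate reads of the transferred AKT1 from those of the cell's own gene. AKT2 was at 89.0 ± 1.14 CPM in WT and 92.3 ± 0.604 in MB231-myrAKT and did not pass the test (adjusted p = 0.33). GPS2, the gene targeted in the knockout pools, was at 4.56 ± 0.278 CPM in WT and 5.54 ± 0.904 in MB231-myrAKT (adjusted p = 0.097). It was at 4.49 CPM in KO1 and 6.02 CPM in KO2, which does not show a loss at the RNA level in the libraries labelled KO, and counts per gene do not show an edit of the sequence.

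Other genes of the PI3K and AKT pathway moved in both directions. At an adjusted p of at most 0.001 without a minimum fold change, which is the threshold for a call below, 8 of 40 tested members were higher and 12 were lower, with a median log2 fold change of -0.01, and outside the runs 5 of 34 were higher and 9 lower. Of all tested genes, 1980 (12.7%) were called higher and 2697 (17.3%) were called lower, with a median of 0.02. Rises were 42.3% of these calls, against 50.5% with upper quartile scaling and 51.03% with library totals, which moved the median to 0.06. The largest fall was that of PIK3IP1, an inhibitor of the PI3K catalytic subunit, which was at 4.30, 4.49 and 4.54 CPM in WT and at 1.11, 1.38 and 1.32 CPM in MB231-myrAKT. INPP4B, a phosphatase that removes a PI3K lipid product, fell from 95.1 ± 2.08 to 47.7 ± 3.73 CPM. PHLPP1, a phosphatase that dephosphorylates AKT, fell from 33.2 ± 1.49 to 19.5 ± 0.646 CPM. The regulatory subunit PIK3R1 rose from 21.8 ± 1.23 to 34.8 ± 0.966 CPM, and the regulatory subunit PIK3R3 also rose, with log2 fold changes of 0.67 ± 0.0552 and 0.59 ± 0.079. PIK3R1 lies on chromosome 5, where its neighbours had a median of -0.44. The scaffold GAB2 fell by 0.98 on the log2 scale. It lies on chromosome 11, which stood apart as a whole, and its neighbours had a median of -0.45.

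Expression differed between the lines by chromosome. Of 866 tested genes on chromosome 11, 781 had a log2 fold change below 0, 580 (67%) were called lower and 20 (2.31%) were called higher. The median on this chromosome was -0.54, with quartiles at -0.79 and -0.31, so the shift was spread over most of its genes. The long arm of chromosome 16 showed the opposite direction. In chr16:46622861-90178344, which reaches to the last tested gene, 286 of 319 tested genes were above 0, 195 (61.1%) were called higher and 12 were called lower, with a median of 0.52.

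**Figure D1:**
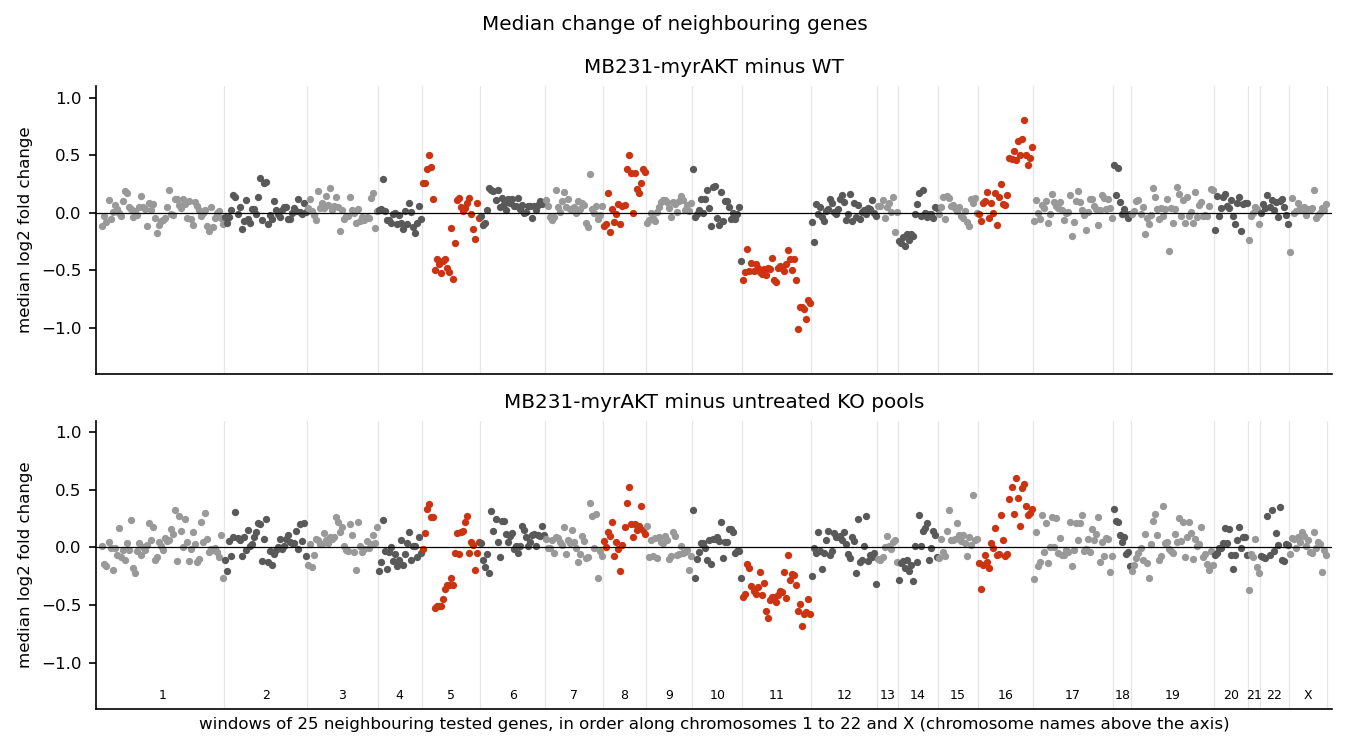
Median log2 fold change (y axis) of consecutive windows of 25 neighbouring tested genes along chromosomes 1 to 22 and X (x axis, 1 point per window), for MB231-myrAKT minus WT (top) and minus the untreated KO pools (bottom), with chromosomes 5, 8, 11 and 16 in red. All 34 windows of chromosome 11 lie between -1.01 and -0.31 in the top panel, while those of most other chromosomes scatter around 0.

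To describe these stretches, tested genes were put in order along each chromosome and divided into windows of 25, and a run was defined, after the pattern had been seen, as at least 3 adjacent windows whose medians were at least 0.25 from 0 on the same side. There were 6 runs with 1674 genes. The whole of chromosome 11 formed 1 run of 34 windows, and within it the 7 windows in chr11:95150539-134378341 had a median of -0.82 over 191 genes, against -0.48 for the other 675 genes. Chromosome 5 held both directions. Its first 5 windows, chr5:196868-43067452, had a median of 0.35 over 125 genes, and the 8 windows in chr5:53480626-111739726 had a median of -0.47, with 174 of 200 genes below 0. On chromosome 8, runs of 3 windows in chr8:80541300-100336218 and chr8:140520156-145066685 had medians of 0.44 and 0.32. Leaving out each library in turn kept the median of chromosome 11 between -0.55 and -0.54 and that of the chromosome 16 run between 0.51 and 0.52.

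The reads themselves showed the same split library by library. Genes of chromosome 11 took between 7.195% and 7.325% of the normalized reads in the 3 WT libraries and between 4.93% and 5.01% in the 3 MB231-myrAKT libraries. The untreated KO1 libraries lay at 7.16% to 7.27%, overlapping WT, and the KO2 libraries at 6.24% to 6.296%, between the 2 groups. Genes of the chromosome 16 run took 1.36% to 1.37% in WT, 1.45% to 1.47% in KO1, 1.62% to 1.66% in KO2 and 1.86% to 1.94% in MB231-myrAKT. Against the KO pools, a comparison that shares the MB231-myrAKT libraries but uses no WT library, the median was -0.40 on chromosome 11 and 0.41 in the chromosome 16 run. DNA copy number was not measured, and its part in these shifts was not tested.

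The runs, with 1674 of the 15587 genes tested, held 743 of the genes called lower (27.5%) and 345 of those called higher (17.4%). Runs were defined by these same changes, so an excess of calls within them follows from the definition. Outside the runs, 1635 of 13913 genes (11.8%) were called higher and 1954 (14%) lower. With a minimum fold change of 1.5, 770 genes (4.94%) were higher and 1376 (8.83%) lower, of which 603 and 921 lay outside the runs. For every gene below that lies in a run, the median change of its up to 24 nearest tested neighbours is given beside its own.

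The cytosolic ribosomal protein genes, which encode the proteins of 1 complex from many chromosomes, were read by position. Of 75 tested, 6 were called higher and 7 lower. All 7 that fell and 4 of the 6 that rose lay in the runs, each in the direction of its run, and these were all 11 ribosomal protein genes in the runs. RPS25, a small subunit protein encoded on chromosome 11, was at 358, 360 and 366 CPM in WT and at 240, 236 and 224 CPM in MB231-myrAKT, and the log2 fold change was -0.64 ± 0.0427 beside a median of -0.83 for its neighbours. RPL13, a large subunit protein encoded at the end of chromosome 16, went from 571, 591 and 603 CPM to 831, 864 and 743 CPM, a log2 fold change of 0.46 ± 0.0557 beside 0.64 for its neighbours. Of the 64 members outside the runs, RPL13A and RPS12 were called higher and 0 were called lower by edgeR, while 7 were below 0 at an unadjusted p under 0.05. The count of rises was 3 without WT replicate 3 or without MB231-myrAKT replicate 2 and up to 11 with other scalings, whereas 7 falls were counted in each of these fits and with DESeq2.

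**Figure D2:**
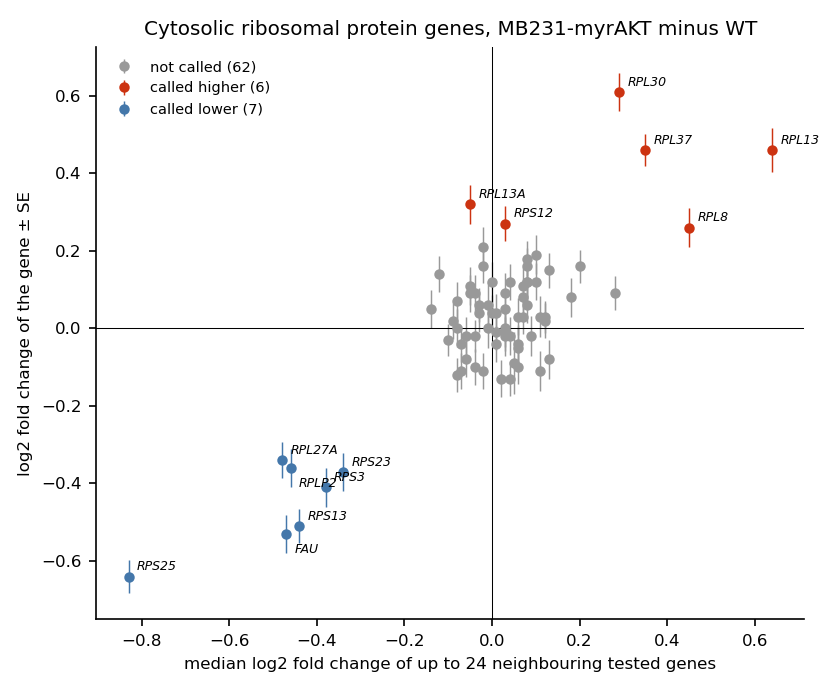
Log2 fold change of each of the 75 ribosomal protein genes, with its standard error (y axis), against the median log2 fold change of up to 24 neighbouring tested genes (x axis), MB231-myrAKT minus WT. The 7 genes called lower (blue) have neighbours between -0.83 and -0.34, and the 62 genes not called (grey) have neighbours between -0.14 and 0.28.

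The genes with the largest rises by the naming rule, which required at least 100 normalized counts in the higher group and groups that did not overlap, were CDH18, NGFR, VWA5A, IL13RA2, MAL2, RTN1, AKR1C1, DPYSL3, OTUD7A and MAGEA3. NGFR, the p75 neurotrophin receptor, was at 1.02, 0.959 and 1.24 CPM in WT and at 182, 157 and 153 CPM in MB231-myrAKT, 151-fold higher. CDH18, a cadherin of the nervous system, had no count in any WT library and 10.6, 10.1 and 10.3 CPM in MB231-myrAKT, which is at least 124-fold higher when WT is set to the floor of 3 counts per library. Its neighbours on chromosome 5 had a median of 0.51. IL13RA2, a decoy receptor for IL-13, went from 0.468, 0.274 and 0.269 CPM to 24.3, 24.01 and 21.6 CPM. It was at 18.6 CPM in KO2 but at 0.339 CPM in KO1. Of these 10 genes, VWA5A, which had 2, 1 and 4 counts in the WT libraries and 163, 165 and 206 in MB231-myrAKT, rose where its neighbours on chromosome 11 had a median of -0.76. A ratio to so few counts is imprecise, and its fitted value depends on the prior count.

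AKR1C1, an aldo-keto reductase that reduces steroids, rose from 1.35 ± 0.362 to 23.5 ± 1.88 CPM, and DPYSL3, a cytoskeletal protein of growing neurites, from 0.662 ± 0.199 to 11.5 ± 0.453 CPM. RTN1, a reticulon of the endoplasmic reticulum in neuroendocrine cells, rose from 0.205 ± 0.11 to 4.34 ± 0.313 CPM. MAGEA3, a cancer testis antigen, rose from 2.65 ± 0.143 to 40.6 ± 1.19 CPM and stood at 7.51 CPM in KO1 and 26.1 CPM in KO2. MAL2, a transport protein of polarized cells, rose from 0.213 ± 0.0259 to 6.46 ± 0.158 CPM, and OTUD7A, a deubiquitinase, from 0.196 ± 0.0366 to 3.25 ± 0.659 CPM. AKR1C1 and MAGEA3 have near-identical paralogs, between which reads may have been split, so their own levels are uncertain.

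The largest falls were of a different kind, since most of these genes went to 0. CCL2, SLITRK4, PIWIL1, RFPL4AL1, GPR65, RHOD, NRK and KAZN-AS1 had no count in any of the 3 MB231-myrAKT libraries, and RFPL4A and STXBP6 had at most 1 count per library. CCL2, the chemokine that attracts monocytes, was at 15.04, 13.7 and 13.9 CPM in WT and is at least 162-fold lower in MB231-myrAKT against the floor of 3 counts per library. SLITRK4, a synaptic adhesion protein, was at 9.62, 9.40 and 8.67 CPM in WT and is at least 105-fold lower. PIWIL1, a germline protein that binds piRNAs, was at 7.08 ± 0.437 CPM in WT and is at least 80.6-fold lower. All 3 were detected in the knockout pools, with CCL2 at 31.8 CPM in KO1 and 7.57 in KO2.

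STXBP6, which binds SNARE proteins, was at 11.3, 9.51 and 10.4 CPM in WT and at 0.0300, 0.0320 and 0.0258 CPM in MB231-myrAKT. RHOD, a small GTPase of endosome movement, was at 3.52 ± 0.368 CPM in WT and is at least 40.1-fold lower, where its neighbours on chromosome 11 had a median of -0.43. GPR65, a receptor that senses protons, was at 4.67 ± 0.693 CPM in WT and is at least 53.2-fold lower, the kinase NRK at 3.01 ± 0.137 CPM and at least 34.2-fold lower, and the antisense RNA KAZN-AS1 at 2.86 ± 0.141 CPM and at least 32.5-fold lower. RFPL4A and RFPL4AL1 are near-identical neighbours on chromosome 19 whose reads may have been split between them, and both fell. Over all tested genes, 11 had no count in any MB231-myrAKT library and at least 1 CPM in every WT library, and all 11 had counts in all 6 untreated knockout libraries. In the opposite direction only CDH18 met this criterion.

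**Figure D3:**
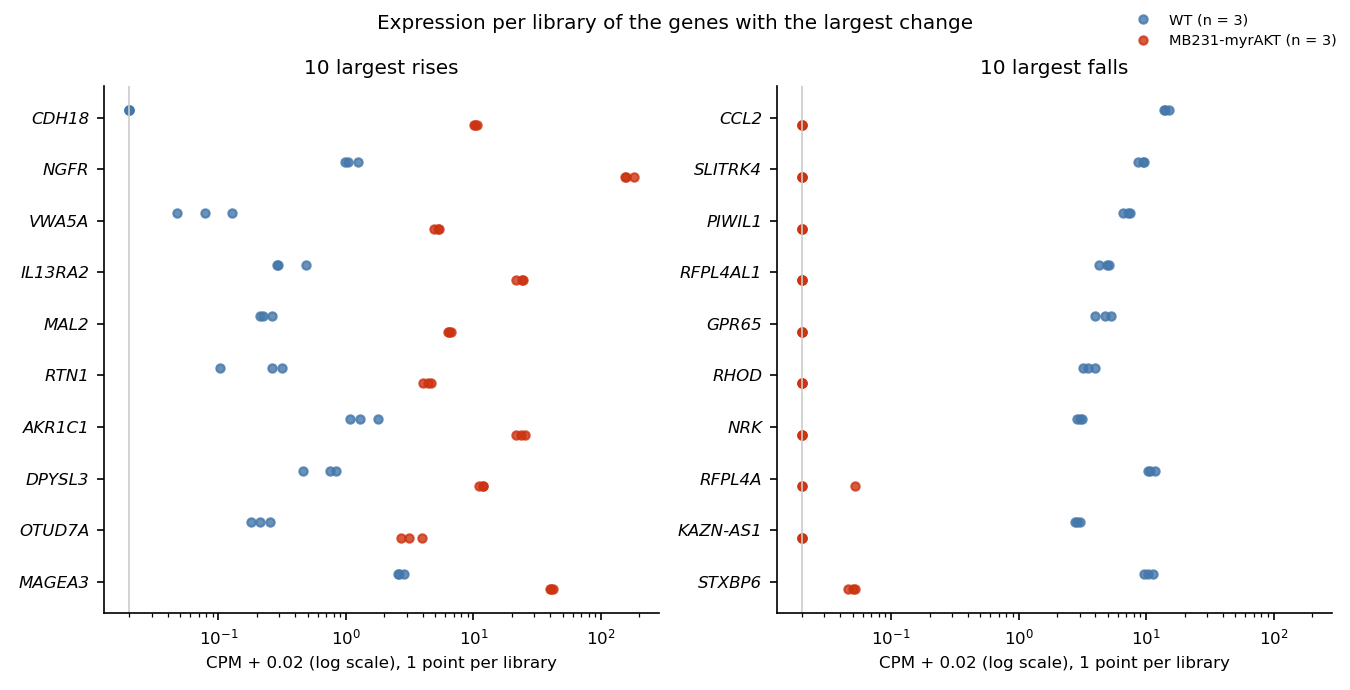
CPM plus 0.02 on a log scale (x axis) in each of the 3 WT (blue) and 3 MB231-myrAKT (red) libraries for the 10 genes with the largest rises (left) and the 10 with the largest falls (right). A point on the grey line had no count, as for CDH18 in all WT libraries and CCL2 in all MB231-myrAKT libraries.

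Among genes chosen for a high CPM and a change of at least 2-fold, ENPP1, COL6A1 and ADGRG1 rose and CCN1, RN7SL5P and MMP1 fell. ENPP1, a membrane enzyme that hydrolyses extracellular ATP and cGAMP, was at 211, 257 and 245 CPM in WT and at 549, 574 and 554 CPM in MB231-myrAKT. COL6A1, a chain of collagen VI, rose from 209 ± 18.0 to 504 ± 10.1 CPM. ADGRG1, an adhesion receptor also called GPR56, rose from 120 ± 11.1 to 424 ± 7.89 CPM, a log2 fold change of 1.81 beside 0.55 for its neighbours on chromosome 16. CCN1, a matricellular protein, fell from 2549, 2007 and 2307 CPM to 1020, 1145 and 902 CPM. RN7SL5P, a pseudogene of the signal recognition particle RNA, belongs to a multicopy family whose reads may have been split. It was at 1636 CPM in WT and 817 in MB231-myrAKT, and its fall lost the call with DESeq2 (adjusted p = 0.0059), with upper quartile scaling (adjusted p = 0.0013) and without MB231-myrAKT replicate 1 or 2 (edgeR adjusted p = 0.0030 and 0.0034).

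MMP1, the interstitial collagenase, was at 1580, 1616 and 1660 CPM in WT and at 93.7, 91.7 and 90.0 CPM in MB231-myrAKT. The log2 fold change was -4.15 ± 0.0529, and the neighbours of this gene on chromosome 11 had a median of -1.06. MMP3 and MMP10 lie in the same gene cluster and also fell, by 2.24 and 3.60 on the log2 scale, beside -1.06 and -1.01 for their neighbours. Of 13 tested matrix metalloproteinases and inhibitors, 5 were called higher and 6 lower, and outside the runs 4 were higher and 3 lower. The inhibitors TIMP1, TIMP2 and TIMP3 rose, with log2 fold changes of 0.60, 0.39 and 0.41, and so did the membrane-bound MMP14, with 0.35. The count of falls was 3 without MB231-myrAKT replicate 1 or 3, with upper quartile scaling and with library totals.

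Known NF-kB target genes were mostly lower in MB231-myrAKT. NF-kB is a family of transcription factors that is held in the cytoplasm by IkB proteins and induces chemokines, cytokines and its own inhibitors after inflammatory signals. Of 22 tested feedback targets of NF-kB, 17 were called lower and 1 higher, with a median log2 fold change of -0.59. Of 20 tested chemokines and cytokines, 15 were called lower, all by at least 1.5-fold, and 0 higher in edgeR, in DESeq2 and at an unadjusted p under 0.05, with a median of -1.16 that did not change with CCL2 set to its bound. Among these 20 genes 4 had a value above 0. Outside the runs the counts were 14 of 18 lower for each list. The single rise was that of CYLD, a deubiquitinase that inhibits NF-kB signalling, from 49.3 ± 0.9 to 59.5 ± 1.78 CPM. Its log2 fold change was 0.26 ± 0.043 beside 0.43 for its neighbours in the chromosome 16 run, and it was not called without WT replicate 2 or 3.

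The upstream sequences of the inhibitors NFKBIA and TNFAIP3, the chemokine CXCL8 and ICAM1, which had the largest fall of the feedback list, are shown as genes of this group with and without NF-kB matches. The 250 bases before the RefSeq start (GRCh38.p14) are given 5′ to 3′ on the strand of the gene, at chr14:35404750-35404999 (minus), chr6:137867009-137867258 (plus), chr4:73740319-73740568 (plus) and chr19:10270870-10271119 (plus). Capitals mark matches to the NF-kB consensus, to the AP-1 motif TGANTCA and to the TATA motif TATAAA, searched on both strands.
NFKBIA: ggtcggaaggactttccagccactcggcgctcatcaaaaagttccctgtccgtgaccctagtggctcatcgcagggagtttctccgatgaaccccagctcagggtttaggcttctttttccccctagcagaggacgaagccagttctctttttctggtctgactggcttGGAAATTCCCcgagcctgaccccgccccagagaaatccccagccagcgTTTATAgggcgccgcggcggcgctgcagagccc
TNFAIP3: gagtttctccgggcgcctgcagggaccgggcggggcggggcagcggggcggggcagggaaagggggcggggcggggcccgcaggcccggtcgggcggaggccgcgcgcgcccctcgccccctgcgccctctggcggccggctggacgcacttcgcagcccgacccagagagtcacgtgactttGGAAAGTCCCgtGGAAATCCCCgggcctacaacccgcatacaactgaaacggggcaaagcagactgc
CXCL8: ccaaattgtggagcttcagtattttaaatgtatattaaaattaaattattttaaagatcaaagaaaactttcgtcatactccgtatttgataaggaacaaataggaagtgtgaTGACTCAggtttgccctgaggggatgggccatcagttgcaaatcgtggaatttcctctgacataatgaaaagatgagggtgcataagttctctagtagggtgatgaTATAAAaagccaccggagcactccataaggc
ICAM1: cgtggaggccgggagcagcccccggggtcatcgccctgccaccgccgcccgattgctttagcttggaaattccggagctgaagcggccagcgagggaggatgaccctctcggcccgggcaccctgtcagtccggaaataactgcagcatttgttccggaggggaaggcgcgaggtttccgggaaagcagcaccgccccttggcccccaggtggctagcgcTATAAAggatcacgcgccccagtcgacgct
NFKBIA had 1 NF-kB match, which began 81 bases before the start, and a TATA match on the other strand at 33 bases. TNFAIP3 had a pair of NF-kB matches at 67 and 55 bases and no TATA match. CXCL8 had no NF-kB match, an AP-1 match at 137 bases and a TATA match at 31 bases. ICAM1 had no NF-kB match and a TATA match at 30 bases. Only full matches to the consensus were counted. CXCL8 and ICAM1 each hold a stretch that differs from the NF-kB consensus in 1 letter, tggaatttcc and tggaaattcc, which is not marked. The absence of a match says only that no full match lies in this window. In windows of 250 bases before to 50 after the start, NF-kB matches were present in 7 of 18 feedback targets with a promoter in the table (38.9%) and in 5 of 13 chemokines and cytokines (38.5%), against 5.72% of all 27305 promoters. The lists were chosen as known NF-kB genes, so this share comes with the choice. Among all genes called lower 7.92% had a match, among those called higher 5.51% and among all tested genes 6.58%, and a match of letters is not a binding site.

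Falls in the feedback list included 2 inhibitors of the pathway. NFKBIA, which encodes IkB-alpha, was at 134, 137 and 144 CPM in WT and at 75.0, 78.7 and 74.8 CPM in MB231-myrAKT, where the log2 fold change was -0.87 ± 0.045. TNFAIP3, the ubiquitin-editing protein A20, fell from 53.0, 44.2 and 50.1 CPM to 16.6, 19.8 and 16.9 CPM. ICAM1, an adhesion molecule for leukocytes, had the largest fall of the feedback list, from 111, 104 and 108 CPM to 9.34, 10.8 and 8.73 CPM, 11.3-fold lower. For these 3 genes every WT library lay above every MB231-myrAKT library. Over all 15587 genes tested, the groups did not overlap in 9480. Subunits of the factor itself were also lower, RELB with a log2 fold change of -1.12, NFKB2 with -0.57 and NFKB1 with -0.33. RELA, with -0.60 ± 0.0428, and the ubiquitin ligases BIRC3 and BIRC2, with -1.79 and -0.73, lie on chromosome 11, where their neighbours had medians of -0.49, -1.01 and -1.12.

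CXCL8, a neutrophil chemokine, fell from 98.7, 80.3 and 92.7 CPM to 20.1, 23.8 and 20.7 CPM, and CXCL1 from 17.6 ± 1.98 to 2.74 ± 0.482 CPM. IL1A, an interleukin-1 that is released from damaged cells, was 8.63-fold lower, at 32.7, 26.4 and 31.3 CPM in WT and 2.49, 3.90 and 4.05 CPM in MB231-myrAKT. The colony-stimulating factors CSF2 and CSF1 fell from 31.2 ± 1.89 to 7.83 ± 1.79 CPM and from 783 ± 109 to 397 ± 31.0 CPM. IL6 fell by 0.97 and IL1B by 0.75 on the log2 scale.

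These groups did not stand as far below the knockout pools. Against the untreated KO pools, where 7876 of all tested genes (50.5%) were called, 3764 (24.1%) higher and 4112 (26.4%) lower, 10 of the 22 feedback targets were lower and 3 higher, with a median of -0.10. Among the 20 chemokines and cytokines 6 were lower and 5 higher, with a median of -0.19. NFKBIA stood at 96.8 CPM in KO1 and 60.2 CPM in KO2, on either side of its mean of 76.1 CPM in MB231-myrAKT, and ICAM1 at 43.9 and 9.57 CPM, the latter next to 9.62 CPM in MB231-myrAKT. Both comparisons use the same MB231-myrAKT libraries.

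**Figure D4:**
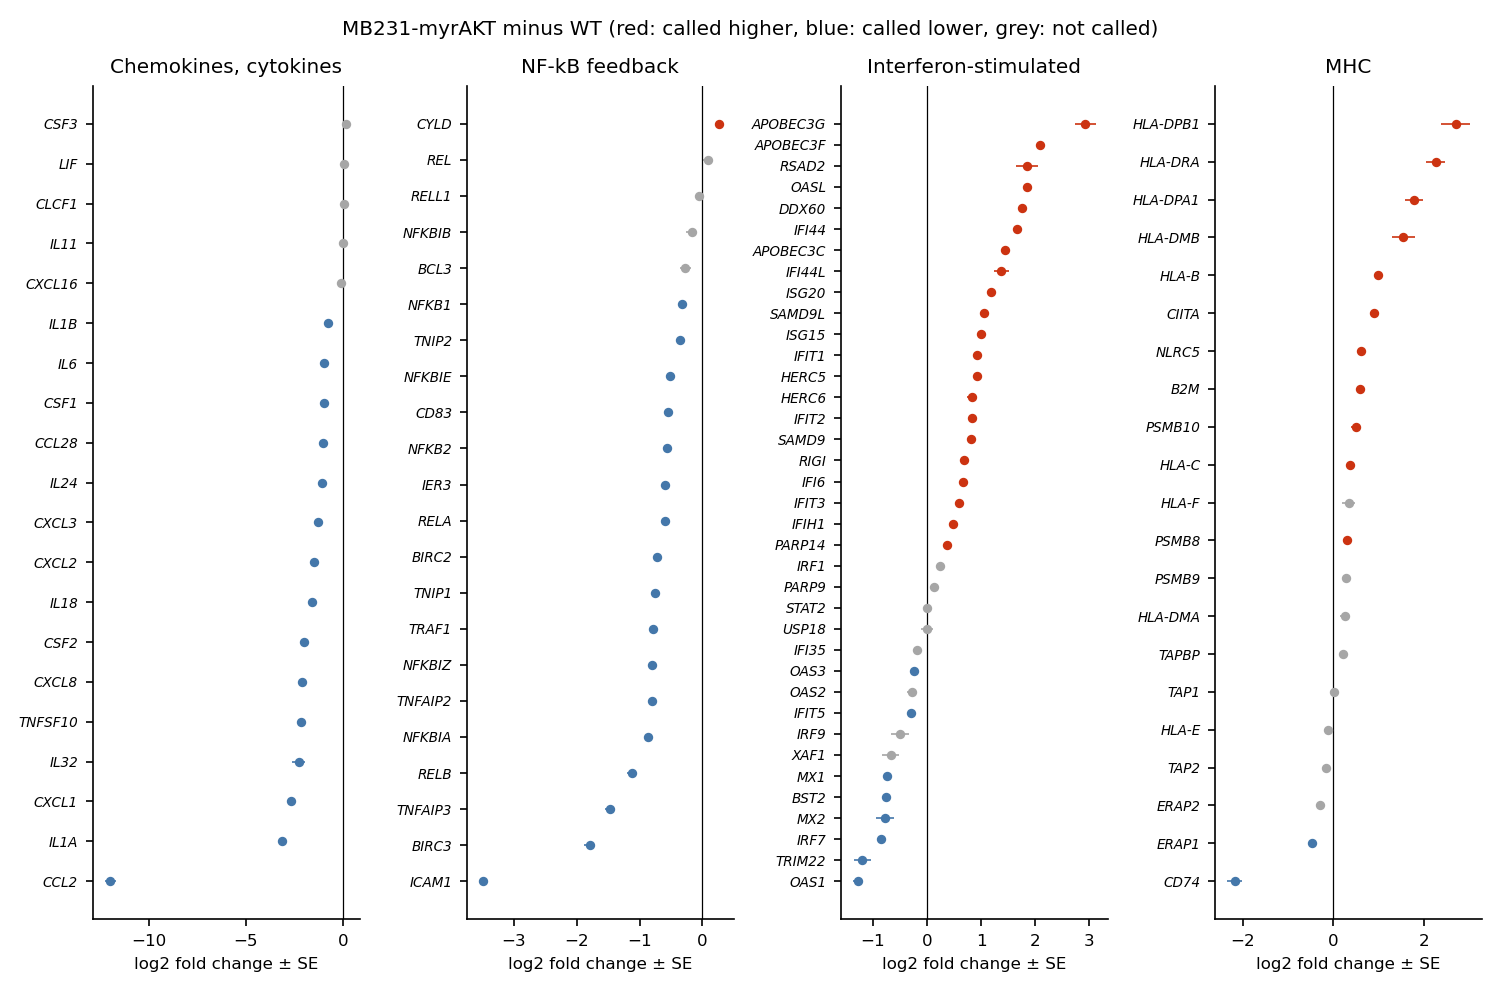
Log2 fold change with its standard error (x axis) for tested members (y axis) of 4 gene lists, MB231-myrAKT minus WT, coloured by call. Most chemokine, cytokine and NF-kB genes lie left of 0 and most interferon-stimulated and MHC genes right of 0. CCL2 had no count in MB231-myrAKT, so its plotted value depends on the prior count.

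Interferon-stimulated genes went the other way, though not as a block. These genes are induced by interferons through STAT and IRF factors and restrict viruses. Of 38 tested, 21 were called higher and 8 lower, with a median log2 fold change of 0.54, and outside the runs 21 of 36 were higher and 6 lower. APOBEC3F, a cytidine deaminase that restricts retroviruses, was at 10.2, 9.75 and 10.0 CPM in WT and at 43.1, 42.9 and 41.4 CPM in MB231-myrAKT, 4.23-fold higher. APOBEC3G, of the same family, rose from 0.507 ± 0.0913 to 3.90 ± 0.309 CPM, and DDX60, a helicase that aids sensing of viral RNA, from 19.5 ± 0.321 to 65.9 ± 2.62 CPM. OASL and ISG15, a ubiquitin-like protein, rose with log2 fold changes of 1.85 and 1.00. OAS1, which activates RNase L, fell from 17.9, 17.8 and 16.3 CPM to 7.90, 7.26 and 6.46 CPM, and MX1, a GTPase against viruses, fell by 0.73 on the log2 scale. The count of falls was 5 without WT replicate 2 or 3 or without MB231-myrAKT replicate 2 and with upper quartile scaling, while the count of rises was 21 or 22 in all these fits.

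Genes of antigen presentation were mostly higher as well. Of 22 tested MHC genes, 12 were called higher and 2 lower, with a median of 0.36. HLA-B, a class I heavy chain, rose from 149, 162 and 163 CPM to 307, 336 and 301 CPM. B2M, the light chain of all class I molecules, rose from 338 ± 17.2 to 513 ± 12.1 CPM, and HLA-C rose with a log2 fold change of 0.37. The class II genes were at low levels, with HLA-DRA at 0.614, 0.438 and 0.752 CPM in WT and 3.03, 2.97 and 2.76 CPM in MB231-myrAKT, and CIITA, the activator of class II genes, at 4.21 ± 0.14 and 7.96 ± 0.0854 CPM. CD74, the class II invariant chain, fell from 6.04 ± 0.539 to 1.35 ± 0.306 CPM. HLA genes resemble each other, so reads may have been split between them. Against the KO pools 19 of the 22 were higher and 1 lower, with a median of 1.01, and 27 of the 38 interferon-stimulated genes were higher and 5 lower.

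**Figure D5:**
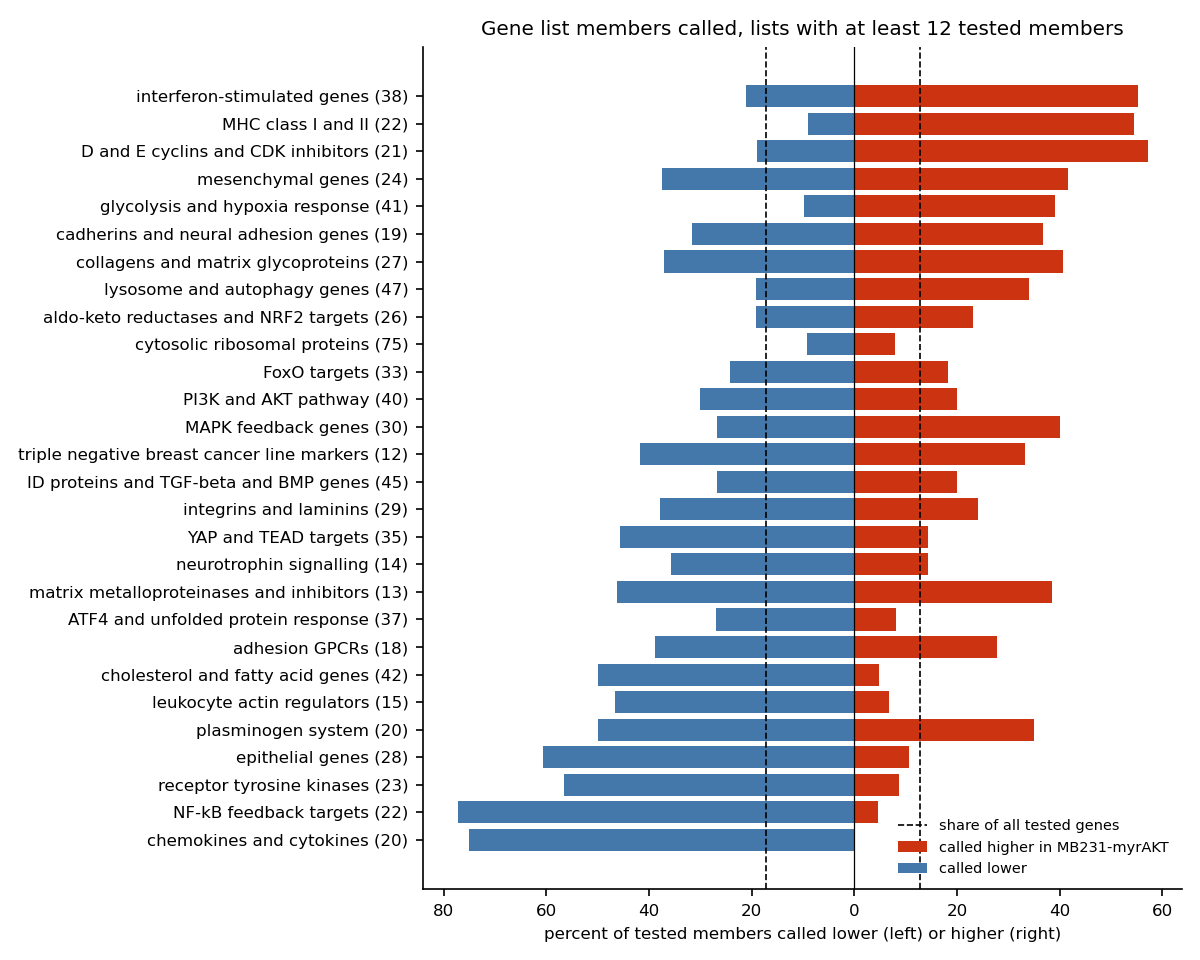
Percent of tested members called higher (red, right) or lower (blue, left) in MB231-myrAKT for each gene list with at least 12 tested members (number in brackets), ordered by median log2 fold change. Dashed lines are the shares of all tested genes, 12.7% higher and 17.3% lower, and most lists exceed the latter on the left, up to 75% for chemokines and cytokines and 77.3% for NF-kB feedback targets.

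Receptor tyrosine kinases were mostly lower. They bind growth factors at the cell surface and activate PI3K. Of 23 tested, none of which lies in a run, 13 were called lower and 2 higher, with a median of -0.42. EGFR fell from 749, 738 and 741 CPM to 487, 530 and 550 CPM, and MET, the receptor of hepatocyte growth factor, from 409 ± 5.22 to 301 ± 5.21 CPM. FLT1 and PDGFRB, receptors of VEGF and PDGF, fell by 3.41 and 1.73 on the log2 scale from levels of 2.80 and 19.6 CPM. The 2 that rose were AXL, from 1020 ± 26.3 to 1343 ± 63.1 CPM, and FGFR1, from 164 ± 5.80 to 237 ± 0.844 CPM. ERBB3 and IGF1R, which FoxO factors are known to induce, fell by 0.83 and 0.28. With upper quartile scaling or library totals 4 receptors were called higher.

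FoxO targets moved in both directions. AKT phosphorylates FoxO proteins and keeps them out of the nucleus. Of 33 tested targets, 6 (18.2%) were called higher and 8 (24.2%) lower, against 12.7% and 17.3% of all tested genes. The median was 0 to the second decimal, and outside the runs 3 of 29 were higher and 7 lower. Against the KO pools 16 of the 33 were higher and 4 lower, with a median of 0.29. In that comparison 24.1% of all tested genes were higher and 26.4% lower. TXNIP, an arrestin that limits glucose uptake, fell from 200, 169 and 217 CPM to 59.0, 100 and 75.8 CPM, and TNFSF10, the death ligand TRAIL, fell by 2.17 on the log2 scale. SESN3, a sestrin that restrains mTORC1, rose from 5.88, 5.64 and 6.55 CPM to 44.3, 46.2 and 46.1 CPM, 7.52-fold, although its neighbours on chromosome 11 had a median of -0.71. TP53INP1 also rose, with a log2 fold change of 1.11, beside 0.45 for its neighbours on chromosome 8.

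Cholesterol synthesis and uptake genes were more often lower than higher. SREBP factors induce them when sterols are scarce. Of 42 tested cholesterol and fatty acid genes, 21 were called lower and 2 higher, with a median of -0.26, and outside the runs 15 of 34 were lower and 2 higher, with a median of -0.21. INSIG1, which holds SREBP in the endoplasmic reticulum, was at 348, 339.8 and 363 CPM in WT and at 188, 188 and 174 CPM in MB231-myrAKT, 1.92-fold lower. MSMO1, an enzyme that demethylates sterols, fell from 147.0 ± 5.97 to 79.6 ± 3.54 CPM. DHCR7, the last enzyme of cholesterol synthesis, fell from 195 ± 11.3 to 95.8 ± 5.83 CPM, a log2 fold change of -1.03 beside -0.31 for its neighbours on chromosome 11. ACSS2, which makes acetyl-CoA from acetate, and ELOVL6, a fatty acid elongase, fell by 0.79 and 0.73 on the log2 scale. SREBF2, which encodes SREBP2, fell by 0.23. The 2 rises were ABCA1, which exports cholesterol, and MYLIP, a ubiquitin ligase of sterol control, with 0.60 and 0.50.

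Glycolysis and hypoxia response genes were more often higher, by small amounts. Of 41 tested, 16 were called higher and 4 lower, with a median of 0.20, and the rises numbered 10 without MB231-myrAKT replicate 2. PKM, pyruvate kinase, rose from 1503, 1732 and 1655 CPM to 2336, 2147 and 2129 CPM. ALDOA, PGK1 and GPI rose with log2 fold changes of 0.37, 0.31 and 0.35. HK2, the hexokinase that starts glycolysis in many tumours, fell, from 334, 316 and 316 CPM to 166, 174 and 165 CPM.

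Cell cycle regulators of the G1 phase rose more often than they fell. Of 21 tested D and E cyclins, their partners and CDK inhibitors, 12 were called higher and 4 lower, with a median of 0.31, and outside the runs 9 of 16 were higher and 3 lower. Against the KO pools 4 of the 21 were higher and 6 lower, with a median of -0.08. CCNE2, a cyclin of the G1 to S transition, rose from 10.7, 9.53 and 10.5 CPM to 25.3, 20.8 and 22.5 CPM, beside a median of 0.45 for its neighbours on chromosome 8, and E2F2, an activator of S phase genes, rose with a log2 fold change of 0.91. CDKN1A, the inhibitor p21, also rose, from 55.5 ± 2.93 to 93.7 ± 4.66 CPM. Among the falls, CCND2 went from 178 ± 2.95 to 2.68 ± 0.557 CPM and the inhibitor CDKN1C, on chromosome 11, fell by 1.83 beside -0.30 for its neighbours. The count of falls was 2 without WT replicate 2 or 3 or without MB231-myrAKT replicate 3, with upper quartile scaling and with library totals.

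YAP and TEAD targets, which respond to cell shape and matrix tension, gave 16 lower and 5 higher of 35 tested, and 11 and 5 of 29 outside the runs. YAP1, the coactivator, lies on chromosome 11 and fell from 282, 288 and 296 CPM to 101, 100 and 99.2 CPM, a log2 fold change of -1.53 ± 0.0426 beside -1.001 for its neighbours. TEAD1, its DNA-binding partner on the same chromosome, fell from 439 ± 9.15 to 244 ± 3.51 CPM beside -0.50 for its neighbours. Of the targets elsewhere, ANKRD1 fell from 861 ± 73.9 to 350 ± 33.2 CPM and CCN2 from 702 ± 102 to 496 ± 55.7 CPM. AMOT, an angiomotin that binds YAP, was at 5.81 ± 0.414 CPM in WT and had at most 1 count in each MB231-myrAKT library.

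Epithelial genes were mostly lower and the mesenchymal list was split. Of 28 tested epithelial genes 17 were called lower and 3 higher, with a median of -0.40, and of 24 tested mesenchymal genes 10 were higher and 9 lower. Outside the runs 13 of 23 epithelial genes were lower and 3 higher, and of 21 mesenchymal genes 10 were higher and 6 lower. KRT19, a keratin, fell from 237, 256 and 257 CPM to 61.0, 73.6 and 62.5 CPM, and KRT7 from 97.3 ± 3.04 to 16.8 ± 1.45 CPM. EPCAM, an epithelial adhesion molecule, fell from 11.98 ± 0.24 to 3.21 ± 0.0527 CPM. SPINT1, an inhibitor of matriptase, fell from 8.99 ± 0.797 to 0.220 ± 0.0343 CPM. It was at 0.863 CPM in KO1 and 0.0734 CPM in KO2. S100A4, a calcium-binding protein of motile cells, rose from 7.55, 8.33 and 7.57 CPM to 48.4, 44.6 and 43.98 CPM, and PMEPA1, an inhibitor of TGF-beta signalling, from 7.79 ± 0.884 to 47.1 ± 1.56 CPM, whereas the ligand TGFB2 and the crosslinking enzyme LOX fell by 2.13 and 1.40. The count of epithelial rises was 1 without MB231-myrAKT replicate 1 or WT replicate 1 and 0 without MB231-myrAKT replicate 2.

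Matrix genes moved in both directions. Of 27 tested collagens and matrix glycoproteins 11 were called higher and 10 lower, and of 29 integrins and laminins 7 were higher and 11 lower. Against the KO pools 13 of the 27 were higher and 8 lower, and 19 of the 29 were higher and 4 lower. TNC, tenascin C, rose from 27.5, 30.2 and 30.3 CPM to 114, 120 and 122 CPM. COL6A3 rose 7.23-fold, from 2.64 ± 0.388 to 19.2 ± 2.13 CPM, alongside COL6A1. COL12A1 and COL8A1 fell by 1.88 and 1.24 on the log2 scale. ITGB4, the hemidesmosome integrin, rose from 74.1, 76.2 and 79.4 CPM to 258, 302 and 290 CPM, and the laminin chains LAMA3 and LAMB3 rose with log2 fold changes of 0.56 and 0.52. The collagen-binding integrin chains ITGA1 and ITGA2 fell by 0.84 and 0.39. Without WT replicate 3 the count of integrin and laminin falls was 7.

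In the plasminogen and clotting group, 7 of 20 tested genes were called higher and 10 lower, and outside the runs 7 of 18 were higher and 8 lower. SERPINB9, an inhibitor of granzyme B, fell from 40.3, 38.96 and 40.2 CPM to 4.35, 4.70 and 4.78 CPM, and PLAT, tissue plasminogen activator, from 333 ± 15.04 to 115 ± 8.39 CPM. The urokinase gene PLAU and its receptor PLAUR rose by smaller amounts, with log2 fold changes of 0.25 and 0.45. F3, tissue factor, fell by 1.31, and the thrombin receptor F2R by 1.61 beside -0.53 for its neighbours on chromosome 5.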

How the data were processed

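The authors deposited 1 table of counts, the whole numbers of reads assigned to each Ensembl gene, with no normalization. Per the labels and methods, RNA was depleted of ribosomal RNA, and reads were aligned to hg38 with HISAT2 and counted with featureCounts. The versions, annotation and strand setting of the counting are not given in the sources used here.

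Groups came from sample titles. Genes reaching 1 CPM in 3 or more of the 18 libraries were tested with edgeR 4.0.16 (TMM over the 6 libraries, quasi-likelihood test, Benjamini-Hochberg adjustment, threshold 0.001) in R 4.3.3. Printed CPM were scaled by TMM over all 18 libraries. MB231-myrAKT was fitted against the mean of KO1 and KO2 in the same way over 9 libraries. Positions came from GENCODE release 44, which placed 15511 of the tested genes. DESeq2 1.42.0 was an alternative.

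The members and gene lists were chosen with earlier results of these data known. Named genes were AKT1, AKT2 and GPS2, the 10 largest rises and falls, the 3 rises and 3 falls with the highest CPM among genes changed at least 2-fold, and members of the lists. Some named genes and list members are not reported here, though counts include them. Windows, runs and the comparison of neighbours were defined after seeing the data. Replicates differed by more than counting error (mean chi-square per gene 4.42 to 11.6), and the floors of 3 counts cover counting error only. Standard errors come from the edgeR fit, which includes the spread between libraries. On simulated data, edgeR called 42 of 67 genes changed by 1.5-fold, 55 of 67 changed by 2-fold, 64 of 66 changed by 4-fold and 1 of 15387 unchanged genes. Only these few genes were changed, up and down in near equal number and none with very few counts, and the noise was independent between genes. The simulation held no shift of whole chromosomes, so its rate of false calls may not carry over to these data.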

Additional observations from a re-analysis of the deposited data

How the results depend on the processing

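With an adjusted p of at most 0.05, 4111 genes were higher and 4376 lower, and 1185 were at least 1.5-fold higher. When the fold of 1.5 was itself tested (glmTreat), 282 genes were higher and 679 lower. The other counts stayed within 1.5 times those reported. Leaving out 1 library at a time gave 1413 to 1879 genes higher, 2073 to 2518 lower, 651 to 729 at least 1.5-fold higher and 1254 to 1343 at least 1.5-fold lower. The AKT1 log2 fold change stayed between 0.73 and 0.81 and was called in every fit. The share of rises among called genes was 42.3%, against 50.5% with upper quartile scaling (2358 higher, 2312 lower) and 51% with library totals (2413 and 2316), while the median of all tested genes moved from 0.02 to 0.06. Restrictions added after seeing the data left 1960 higher and 2117 lower without chromosome 11, and 1635 and 1954 without the genes of the runs. Replicate numbers did not pair the samples (correlations of deviations -0.27, -0.0821 and -0.239), and a replicate block gave 1773 higher and 2452 lower. Of 455 called genes named or listed, none changed direction and 99 lost the call in at least 1 fit. Counts of list members moved by more than 1.5 times in 74 of 1020 cases. The cause was not tested. Genes with few counts, such as the class II MHC genes and the genes at 0 in 1 group, are limited by depth.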

Other observations

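Genes of actin control in leukocytes, which parental MDA-MB-231 cells also expressed, were more often lower than higher in MB231-myrAKT. Of 15 tested, 7 were called lower and 1 higher, with a median log2 fold change of -0.31. LCP1, the actin bundler L-plastin, was at 610, 624 and 641 CPM in WT and at 101, 109 and 94.5 CPM in MB231-myrAKT. DOCK2, a Rac activator, fell from 29.1 ± 0.51 to 1.23 ± 0.105 CPM, and FERMT3, the kindlin of blood cells, from 36.1 ± 2.41 to 3.57 ± 0.267 CPM beside -0.58 for its neighbours on chromosome 11. The single rise was ELMO1, and it was not called without any 1 of the WT replicates or without MB231-myrAKT replicate 2.

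Lysosome and autophagy genes rose more often than they fell, with 16 of 47 called higher and 9 lower, and 15 higher and 5 lower of 40 outside the runs. Against the KO pools 29 of the 47 were higher and 8 lower. Relative to WT, the rises numbered 10 without MB231-myrAKT replicate 2. NEU1 and CTSA, which form a complex in lysosomes, rose with log2 fold changes of 0.70 and 0.57, and CTSF, a cathepsin on chromosome 11, fell from 10.8 ± 1.14 to 0.188 ± 0.0512 CPM beside -0.52 for its neighbours. Feedback regulators of MAPK signalling gave 12 higher and 8 lower of 30. SPRY4, which restrains signalling from receptor tyrosine kinases, rose from 183, 213 and 211 CPM to 321, 361 and 367 CPM, while the phosphatase DUSP1 fell from 167, 126 and 153 CPM to 43.4, 47.1 and 40.2 CPM.

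The remaining lists gave smaller or mixed counts. Of 37 tested ATF4 and unfolded protein response genes 10 were lower and 3 higher, of 45 TGF-beta and BMP genes 12 were lower and 9 higher, and of 18 adhesion GPCRs 7 were lower and 5 higher. Against the KO pools, by contrast, 20 of the 37 were higher and 4 lower, and 10 of the 18 were higher and 5 lower. Of 26 aldo-keto reductases and NRF2 targets 6 were higher and 5 lower, of 19 cadherins and neural adhesion genes 7 and 6, of 14 neurotrophin genes 2 and 5, and of 9 cancer testis antigens 2 and 2. Without 1 library the neurotrophin rises and the cancer testis rises and falls each numbered as few as 1. Among markers of other cells, 3 of 8 luminal, 2 of 4 endothelial and 2 of 2 fibroblast markers were lower. Both endothelial falls lay in the runs, and of the 2 endothelial markers outside them 1 was higher and 0 were lower in edgeR, also at an unadjusted p under 0.05. Of 12 triple negative line markers 4 were higher and 5 lower, and 1 of 2 neural crest markers was higher, a call lost with DESeq2, with a replicate block and without any 1 library other than MB231-myrAKT replicate 3. PECAM1, an endothelial marker, was higher, at 3.57 ± 0.181 CPM in WT and 21.1 ± 1.29 in MB231-myrAKT.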
